A study of Mus musculus with 115 samples.

Results

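The 9 genes A1bg, Cml4, E430021N18Rik, Dct, Scara5, Hao3, Nt5e, Dio1 and Ntrk2 were described in mouse liver, and set against inguinal fat of the same design. They were selected on measured values. The choice was on liver differences between mice born with ovaries and mice born with testes, after gonad removal, in any hormone setting. For Ntrk2 the largest such difference was −0.90 ± 0.28 (log2, SE), and the arrays of the gonad types overlapped in every setting. They are represented by 13 of the 25697 probes on the expression BeadChips, which carry 18120 gene symbols in all. In liver, 11 of the 13 probes passed the filter on dim probes, with at least 1 probe for each of the 9 genes. Because the liver gonad and hormone differences chose the genes, they are given below as levels and differences with no test. The contrasts that did not choose them were tested, namely the sex chromosome complement in liver and all contrasts in fat. The tables use older symbols for 3 of the genes, which are now Nat8 (Cml4), Susd4 (E430021N18Rik) and Hao2 (Hao3).

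The mice belong to the FCG model, which separates gonad type from sex chromosomes, on a C57BL/6J background. In it the Y chromosome lacks Sry (written Y-) and Sry is carried as a transgene on an autosome. XX and XY- mice develop ovaries, and XXSry and XY-Sry mice develop testes, so both sex chromosome complements occur with both gonad types. All mice were gonadectomised at 75 days of age and at once given a Silastic capsule, which was blank or held testosterone (5 mM) or estradiol (50 µg). Liver and inguinal fat were taken 3 weeks later, which gives 12 groups in each tissue and 115 arrays in all. Each liver group has 5 arrays, so that each combination of gonad type and capsule has 10 liver arrays. No group kept its gonads, so levels in intact mice were not analysed here. Gonad type and the Sry transgene cannot be told apart in this design. The labels do not say whether each array is a separate animal or whether animals were pooled, so p-values measure only the spread between these samples. The mice are called ovary-line (XX and XY-) and testis-line (XXSry and XY-Sry) below.

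Many liver genes are expressed differently in male and female mice, and much of this difference follows the pattern of growth hormone release from the pituitary, which is pulsatile in males and more continuous in females. Growth hormone acts on hepatocytes through its receptor and the transcription factor STAT5, and gonadal steroids act on the liver largely by setting this release pattern, and in part through their own receptors in hepatocytes. Exposure to testicular hormones early in life can fix part of the adult pattern.

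Levels are log2 normalised probe intensities. A probe was counted as detected on an array where its deposited detection p-value was under 0.01. The deposited median signal lay between 124 and 159 on the liver arrays, and 31.8 to 41.0% of probes were detected there. The 8 hepatocyte markers that were tested had a summed level between 15.6 and 16.5 over all gonad and capsule arms. The lowest value, 15.64, was in the ovary-line estradiol arm, which reached 16.35. Both Xist and the Y-linked Eif2s3y went against the label on 1 liver array, XY-Sry testosterone replicate 5. On that array Xist was at 6.63, against 6.35 to 7.40 on the XX arrays, and Eif2s3y was at 4.53, against 6.76 to 8.14 on the other XY arrays. A second liver array, XY- estradiol replicate 5, carried levels of the testosterone-responsive genes Hsd3b5 (12.26) and Cyp4a12 (11.19) that lie in the range of the testosterone arrays. The other estradiol arrays had Hsd3b5 between 4.50 and 11.19 and Cyp4a12 between 4.58 and 7.69. Both arrays were kept, as the library labelled XY-Sry testosterone and the library labelled XY- estradiol, and values without them are given where they move a result. In bulk tissue, fewer cells of a type and less RNA per cell cannot be told apart.

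Promoter sequence from RefSeq (assembly GRCm38.p6) matched 8 of the 9 genes, and 3 whose levels followed the hormones differently are shown here. A1bg lay near background with testosterone. Dct and Dio1 were both higher with either hormone in testis-line mice. In ovary-line mice, the testosterone difference was −1.06 ± 0.29 for Dct and 0.22 ± 0.18 for Dio1. Each sequence covers the 250 bases before the annotated start, 5′ to 3′ on the gene's own strand, which is the minus strand for all 3. The windows are chr15:60921271-60921520 for A1bg, chr14:118052247-118052496 for Dct and chr4:107307169-107307418 for Dio1. Capitals mark the letters of a STAT5 motif.
A1bg: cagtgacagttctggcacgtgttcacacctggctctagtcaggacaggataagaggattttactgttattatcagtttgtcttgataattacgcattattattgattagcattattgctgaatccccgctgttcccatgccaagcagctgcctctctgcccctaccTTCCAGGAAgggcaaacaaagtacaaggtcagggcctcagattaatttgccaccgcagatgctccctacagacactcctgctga
Dct: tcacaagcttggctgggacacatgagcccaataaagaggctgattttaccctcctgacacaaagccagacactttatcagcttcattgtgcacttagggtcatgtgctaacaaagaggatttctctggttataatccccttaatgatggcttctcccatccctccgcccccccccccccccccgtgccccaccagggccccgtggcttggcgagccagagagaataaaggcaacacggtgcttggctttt
Dio1: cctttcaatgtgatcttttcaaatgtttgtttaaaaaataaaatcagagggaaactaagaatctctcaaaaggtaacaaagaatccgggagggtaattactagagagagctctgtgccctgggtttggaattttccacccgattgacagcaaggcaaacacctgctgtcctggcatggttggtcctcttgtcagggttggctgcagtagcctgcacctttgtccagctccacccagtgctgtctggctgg
For each gene 1 promoter window was searched, although up to 2 were listed for a gene. The STAT5 motif was searched as TTCNNNGAA on both strands, and A1bg was the only 1 of the 8 genes with a match, TTCCAGGAA, 84 bases before the start. The same letters occur in 2306 of 32851 promoter windows of this length (7.02%). The estrogen response element GGTCANNNTGACC was found in 0 of the 8 windows, and in 21 of all windows (0.0639%). The androgen and glucocorticoid element AGAACANNNTGTTC was found in 0 of the 8, and in 10 of all windows (0.0304%). The thyroid hormone element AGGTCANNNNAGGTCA was found in 0 of the 8, and in 5 of all windows (0.0152%). A match describes letters only.

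With blank capsules, the gonad types were fully separated for 5 of the 9 genes, meaning that no ovary-line array overlapped a testis-line array. Such separation was seen for 37 of the 11317 tested probes (0.327%), and since these values chose the genes, nothing is read from the share. A1bg, Dct and Nt5e were higher in the ovary line, and Cml4 and E430021N18Rik were higher in the testis line. With testosterone, Cml4 and Scara5 were separated, both higher in the testis line, against 4 probes of all tested (0.0353%). With estradiol none of the 9 was separated, against 5 probes of all tested (0.0442%). The same genes were separated when the 2 doubted arrays were left out, but with median centring in place of quantile normalisation only 3 were separated with blank capsules.

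**Figure D1:**
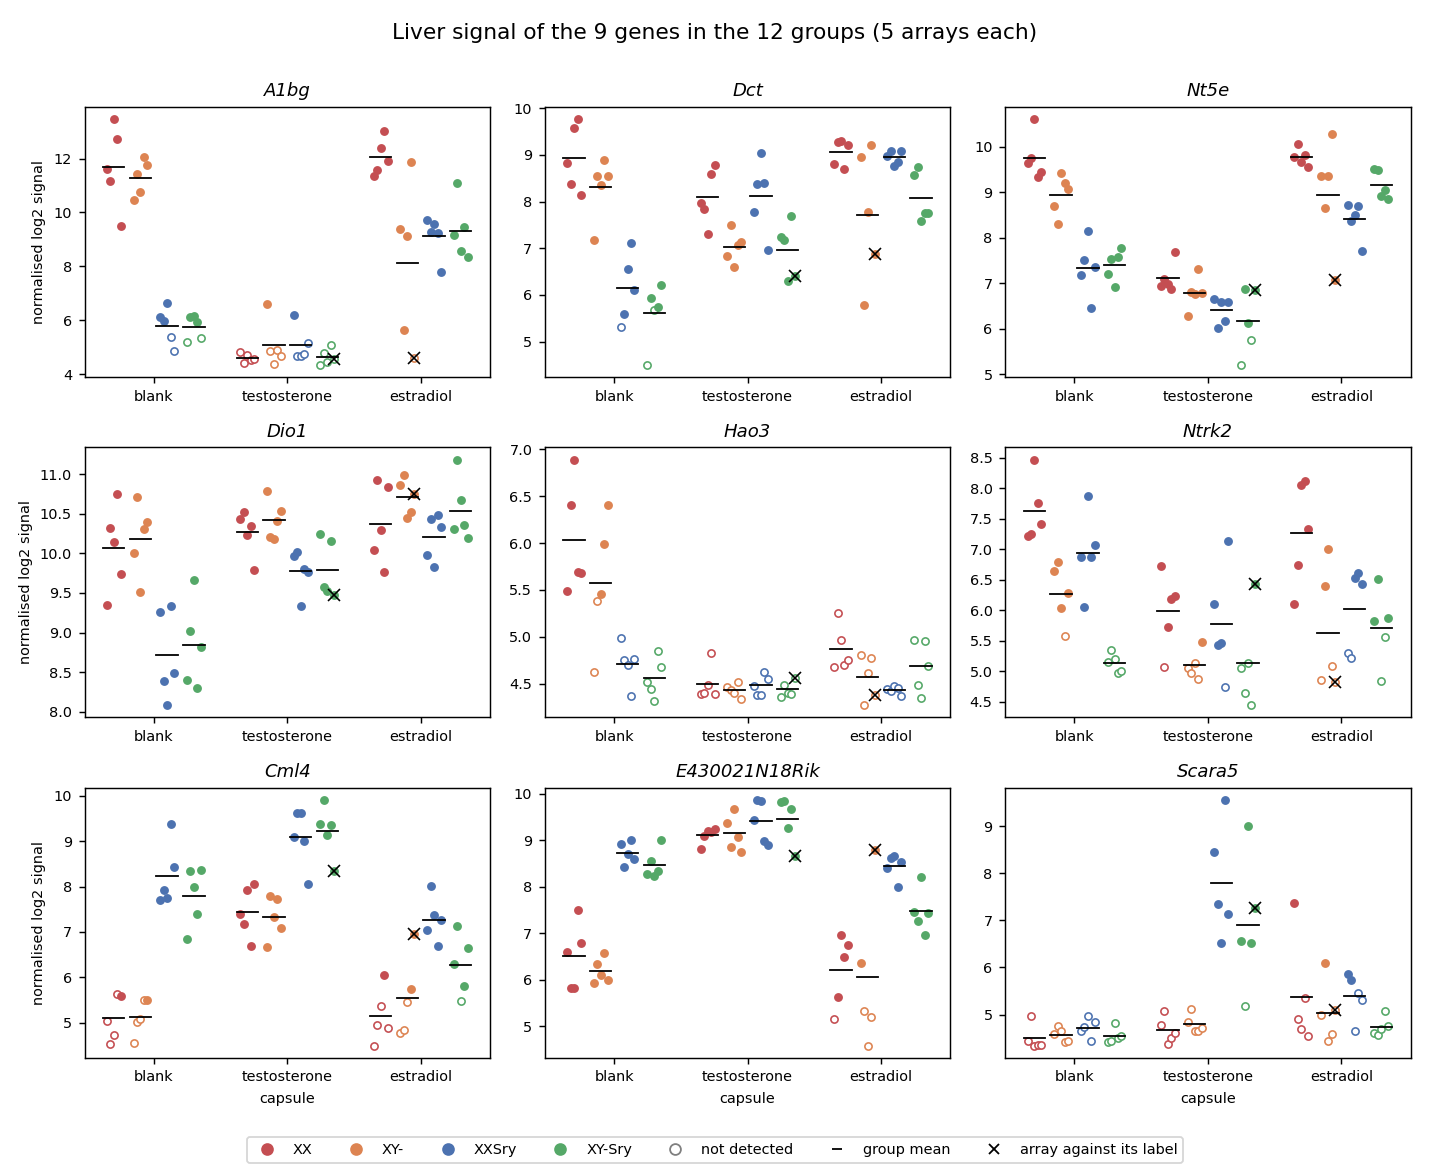
Log2 level of each of the 9 genes on all 60 liver arrays, by genotype and capsule (blank, testosterone, estradiol), with 1 point per array (open where not detected, crossed where the array goes against its label) and the group mean as a bar. The A1bg points of the XX and XY- blank groups lie between 9.51 and 13.45, above all testis-line blank points, and 9 of the 10 testis-line testosterone points of Scara5 are filled, against none of the ovary-line testosterone points.

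A1bg encodes alpha-1-B glycoprotein, a secreted plasma protein of the immunoglobulin superfamily. With blank capsules the XX livers had A1bg levels of 11.61, 11.18, 13.45, 12.71 and 9.51, and the XY- livers had 10.44, 11.42, 10.75, 12.05 and 11.77. The XXSry livers had 6.11, 5.98, 6.63, 5.38 and 4.86, and the XY-Sry livers had 5.20, 6.13, 6.15, 5.93 and 5.34. All ovary-line arrays were thus high and all testis-line arrays low, with the probe detected on 10 of 10 and 6 of 10 arrays. The testis line lay lower by −5.72 ± 0.48 (SE), a 52.7-fold difference.

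With testosterone A1bg was near background in both gonad types and was detected on 1 of 10 arrays in each. The ovary line had a median of 4.69 (4.36 to 6.62), and the testis line a median of 4.71 (4.35 to 6.20). The gonad difference was 0.02 ± 0.48. With estradiol the testis line stood at a median of 9.26 (7.78 to 11.08), with all 10 arrays detected and no overlap with its blank arrays. The estradiol difference in the testis line was 3.45 ± 0.48, which covers 60.3% of the gap between the blank gonad types. The ovary-line estradiol arrays spread most, between 4.59 and 13.01 with a median of 11.46. The spread came from the XY- group, whose arrays read 9.40, 5.64, 9.14, 11.87 and, on the doubted array, 4.59. The gonad difference with estradiol was −0.87 ± 0.48, and −1.31 ± 0.44 without the doubted arrays. It ran from −1.31 to −0.40 with 1 array left out, so its size rests on single arrays of the XY- group.

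Dct encodes dopachrome tautomerase, an enzyme of melanin synthesis best known from pigment cells. Blank ovary-line livers had a median level of 8.55 (7.17 to 9.76), and blank testis-line livers a median of 5.84 (4.50 to 7.12). The 2 arms did not overlap, and the testis line was lower by −2.74 ± 0.29, or 6.70-fold. With either hormone the gonad types overlapped. With testosterone the ovary line had a median of 7.41 (6.60 to 8.78) and the testis line of 7.47 (6.31 to 9.03), a difference of −0.03 ± 0.29. With estradiol the medians were 8.88 (5.78 to 9.29) in the ovary line and 8.75 (7.58 to 9.09) in the testis line, a difference of 0.13 ± 0.29.
In testis-line mice the difference from blank was 1.66 ± 0.29 with testosterone and 2.64 ± 0.29 with estradiol, 60.5% and 96.3% of the blank gap. The estradiol arm lay wholly above the testis-line blank arm. In ovary-line mice testosterone went with a lower level, −1.06 ± 0.29, so the 2 gonad types met at a middle level with this hormone. Dct was detected on 57 of the 60 liver arrays, whereas the pigment-cell genes Tyr, Mitf, Mlana and Mc1r were detected on 0 of 60. The pigment-cell gene Slc45a2 was detected on 20 of 60 by 1 of its probes. Tyrp1 and Pmel were each detected on 1 of 60 by 1 probe.

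Nt5e encodes the membrane enzyme CD73, which makes adenosine from AMP outside the cell. Blank ovary-line livers had a median of 9.38 (8.31 to 10.60) and blank testis-line livers a median of 7.43 (6.45 to 8.14). The arms did not overlap, and the testis line was lower by −1.98 ± 0.23, or 3.96-fold. A second Nt5e probe, detected on 31 of 60 arrays, gave −1.36 ± 0.21.
With testosterone both gonad types were lower, at a median of 6.91 (6.29 to 7.68) in the ovary line and 6.38 (5.21 to 6.88) in the testis line. The testosterone difference was −2.39 ± 0.23 in the ovary line, whose arms were separate, and −1.08 ± 0.23 in the testis line. With estradiol the ovary line stayed near its blank level, with a median of 9.61 (7.06 to 10.27) and a difference of 0.01 ± 0.23. The testis line reached a median of 8.77 (7.71 to 9.50), a difference from blank of 1.42 ± 0.23 that covers 71.4% of the gap. The gonad types remained apart by −0.67 ± 0.23 with testosterone and −0.57 ± 0.23 with estradiol, with overlapping arrays.

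Dio1 encodes type 1 iodothyronine deiodinase, which converts the thyroid prohormone T4 into active T3 in liver. It was lowest in the blank testis line, with a median of 8.66 (8.08 to 9.67) against 10.23 (9.35 to 10.75) in the blank ovary line. The difference was −1.35 ± 0.18, or 2.55-fold, and a second Dio1 probe gave −1.33 ± 0.21. The arms overlapped slightly. With testosterone the medians were 10.37 in the ovary line (9.79 to 10.79) and 9.78 in the testis line (9.33 to 10.24). With estradiol they were 10.63 (9.76 to 10.99) and 10.35 (9.82 to 11.19). Either hormone thus went with a higher level in the testis line, by 1.01 ± 0.18 for testosterone and 1.60 ± 0.18 for estradiol, which are 75.0% and 119% of the gap. The estradiol arm lay wholly above the blank arm. In the ovary line the hormone differences were small, at 0.22 ± 0.18 and 0.42 ± 0.18. The gonad difference was −0.56 ± 0.18 with testosterone and −0.17 ± 0.18 with estradiol. By the second probe it was −0.25 ± 0.21 and −0.15 ± 0.21.

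Hao3 (Hao2) encodes a peroxisomal 2-hydroxy acid oxidase. It was detected on 8 of the 10 blank ovary-line arrays and on 0 of the other 50 liver arrays. The blank ovary-line arrays had a median of 5.69 (4.62 to 6.89), and the blank testis-line arrays a median of 4.69 (4.32 to 4.99). Since the probe was not above background in the other arms, only lower limits hold, set from the dimmest detected probes of those arrays. The blank ovary line was at least 1.19-fold above the blank testis line. It was at least 1.18-fold above its testosterone arm and at least 1.15-fold above its estradiol arm. Neither hormone brought the testis line off background.

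Cml4 (Nat8) belongs to the N-acetyltransferase 8 family, which works at the endoplasmic reticulum. It was the only gene of the 9 whose gonad arms were separate both with blank and with testosterone capsules. Blank testis-line livers had a median of 7.96 (6.84 to 9.37), against 5.05 (4.54 to 5.63) in the ovary line, where it was detected on 2 of 10 arrays. The testis line was higher by 2.90 ± 0.26, a size that is set against readings near background and was 1.38 without background correction. With testosterone both types stood higher, at 9.24 (8.06 to 9.91) in the testis line and 7.36 (6.66 to 8.05) in the ovary line. The gonad difference was 1.77 ± 0.26. The testosterone difference was 2.27 ± 0.26 in the ovary line and 1.14 ± 0.26 in the testis line, so that ovary-line mice with testosterone came to 78.4% of the blank gap.
With estradiol the ovary line stayed near background, with a median of 5.17 (4.50 to 6.95) and 3 of 10 arrays detected. The highest of these is the doubted array. The testis line had a median of 6.87 (5.47 to 8.01), lower than with blank capsules by −1.24 ± 0.26. The gonad difference with estradiol was 1.42 ± 0.26, and 1.60 without the doubted arrays.

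E430021N18Rik (Susd4) encodes a membrane protein with sushi domains that restrains complement activation. Blank testis-line livers had a median of 8.57 (8.24 to 8.998) and blank ovary-line livers a median of 6.23 (5.82 to 7.49). The arms did not overlap, and the testis line was higher by 2.26 ± 0.27, or 4.77-fold. With testosterone the gonad types overlapped at high levels, with medians of 9.56 (8.67 to 9.86) in the testis line and 9.14 (8.74 to 9.67) in the ovary line. The ovary-line testosterone difference of 2.77 ± 0.27 amounts to 123% of the blank gap.
With estradiol the testis line had a median of 8.11 (6.97 to 8.67). The ovary line had a median of 6.00 and ran from 4.59 to 8.79, the top value being the doubted array. Without that array its highest value was 6.97 and its median 5.63. The gonad difference with estradiol was 1.83 ± 0.27 with all arrays and 2.17 ± 0.20 without the doubted arrays.

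Scara5, a scavenger receptor that binds ferritin, had its gonad types apart with testosterone alone. It was detected on 0 of 10 arrays in both blank arms and in the ovary-line testosterone arm, and on 9 of 10 testis-line testosterone arrays. The XXSry testosterone livers had 8.45, 7.35, 6.51, 9.56 and 7.14, and the XY-Sry testosterone livers had 6.57, 5.18, 9.01, 6.51 and 7.27. Ovary-line testosterone livers lay between 4.38 and 5.11, below all of these. The testis-line testosterone level was at least 3.46-fold above the ovary-line testosterone level and at least 3.49-fold above the testis-line blank level. With estradiol it was detected on 2 of 10 arrays in each gonad type, with medians of 4.95 (4.43 to 7.37) and 4.92 (4.56 to 5.86).
The 2 highest Scara5 arrays, XXSry replicate 4 and XY-Sry replicate 3, also had the highest summed level of the keratins Krt8 and Krt18. It was 12.39 and 12.58 there, and no other liver array exceeded 11.49. Krt8 and Krt18 were detected on all 60 liver arrays, whereas Krt5, Krt14 and Krt19 were detected on 0 and Krt7 on 1. Whether the keratin level has a part in the Scara5 level was not tested. The adipocyte markers Adipoq, Fabp4 and Plin1 were detected on 0 of 60 liver arrays, but Lep was detected on 21 and Cfd on 9. Lep and Cfd were tested, and neither was called for testosterone (median 0.26) or for gonad type with testosterone (median 0.04). Of all probes, 19.1% and 0.212% were called in these contrasts. The part of fat cells in the Scara5 level was not tested. Stellate cell and fibroblast markers had a summed level of 11.79 to 12.43 in the testis-line and 11.99 to 12.45 in the ovary-line testosterone arm.

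Ntrk2 encodes TrkB, the receptor for brain-derived neurotrophic factor. Blank ovary-line livers had a median of 6.998 (5.58 to 8.47) and blank testis-line livers a median of 5.71 (4.98 to 7.86), with overlap. The difference was −0.90 ± 0.28, or 1.87-fold. With testosterone the medians were 5.31 in the ovary line (4.87 to 6.72) and 5.29 in the testis line (4.45 to 7.13), with the probe detected on 5 of 10 arrays in each. With estradiol they were 6.57 (4.82 to 8.11) and 5.84 (4.84 to 6.61). The other 2 Ntrk2 probes were detected on 0 of 60 liver arrays.

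**Figure D2:**
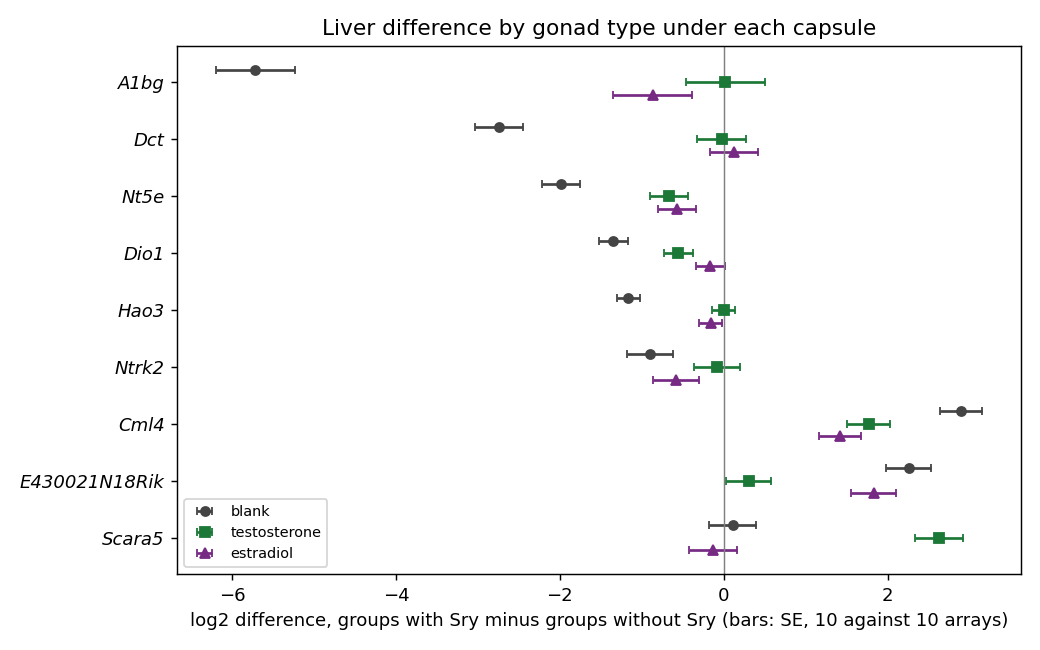
Testis-line minus ovary-line difference (log2, estimate with standard error) of each gene in liver with blank, testosterone and estradiol capsules. With blank capsules A1bg lies at −5.72 and Cml4 at 2.90, and with testosterone Cml4 lies at 1.77. The points of Scara5 and Hao3 are set against arms not above background and are no exact sizes.

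Within microarray slides, each of which held both gonad types, the blank gonad difference had 1 sign on all 5 slides that carried blank arrays of both types, for every gene but Scara5. A1bg ran from −6.61 to −5.24, Dct from −3.37 to −2.42, and Cml4 from 2.37 to 3.14 over these slides. For Scara5 with testosterone the within-slide difference ran from 1.18 to 3.74, positive on 5 of 5 slides, and for Cml4 with testosterone from 0.96 to 2.28. The same arrays chose the genes, so these values describe the spread over slides and are no further evidence.

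The share of the blank gap that each hormone covered differed from gene to gene. Estradiol in testis-line mice covered 96.3% of the gap for Dct, 119% for Dio1, 71.4% for Nt5e and 60.3% for A1bg. It covered 42.8% for Cml4 and 28.6% for E430021N18Rik. No share is given for Ntrk2, whose difference of −0.17 ± 0.28 was smaller than its standard error. None is given for Hao3 either, which was not detected in either testis-line arm. Testosterone in ovary-line mice covered the gap toward the testis-line blank level for Nt5e (121%), E430021N18Rik (123%) and Ntrk2 (155%). It covered 78.4% for Cml4 and 38.4% for Dct, and for Dio1 the difference ran the other way (−16.3%). No share is given for A1bg and Hao3 with testosterone, whose ovary-line arm was detected on 1 and 0 of 10 arrays. The shares given for A1bg, Cml4 and Ntrk2 also rest on arms near background and are no exact sizes. Detection was on 6 of 10 blank testis-line arrays for A1bg and 2 of 10 blank ovary-line arrays for Cml4. For Ntrk2 it was on 5 of 10 arrays in the blank testis-line arm and in the ovary-line testosterone arm. The 2 hormone differences within a gonad type share their blank arrays.

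**Figure D3:**
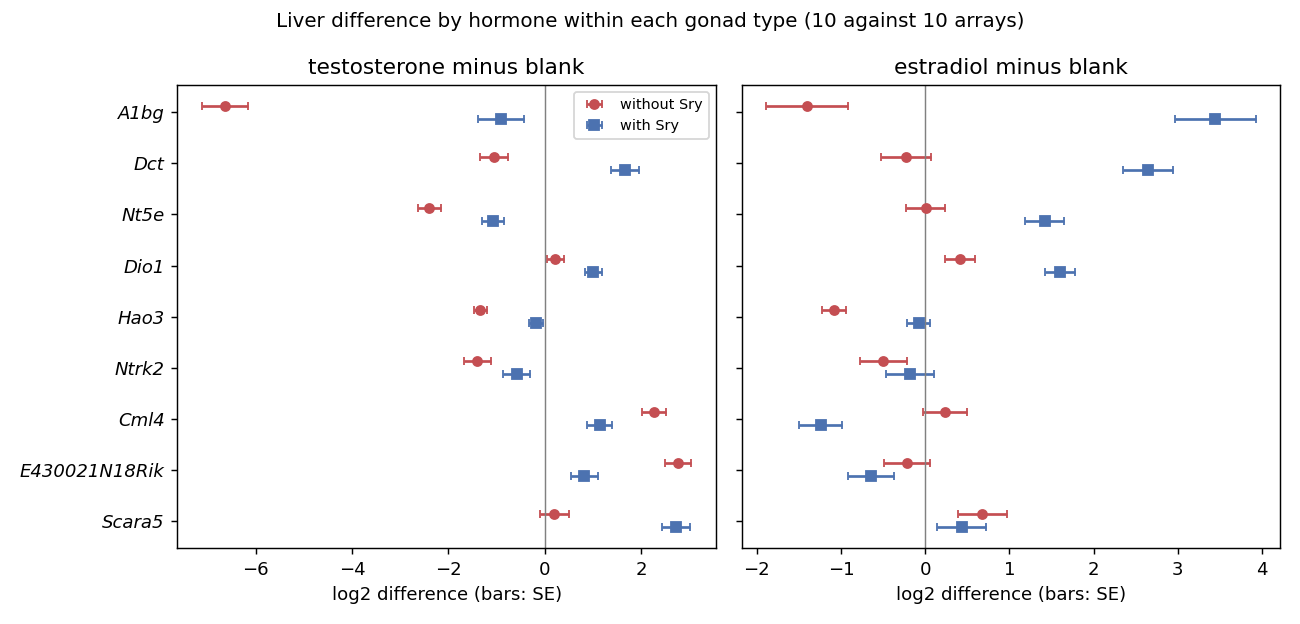
Difference from the blank capsule (log2, estimate with standard error) for testosterone and estradiol in ovary-line and testis-line liver, by gene. Nt5e shows −2.39 with testosterone in the ovary line and 1.42 with estradiol in the testis line. The A1bg points with testosterone, and those of Scara5 and Hao3, involve arms at or near background and are no exact sizes.

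Ordered by group mean, the 12 liver groups showed few steps larger than the spread of the neighbouring groups. Of the 11 steps between neighbours, 2 exceeded the larger of the neighbouring SDs for A1bg and Cml4, 3 for E430021N18Rik and Nt5e, and 1 for each of the other 5 genes. For A1bg the XX estradiol (12.05 ± 0.66, SD, n = 5), XX blank (11.69 ± 1.52) and XY- blank (11.29 ± 0.68) groups stood above such a step. The remaining estradiol groups followed, XY-Sry at 9.32, XXSry at 9.12 and XY- at 8.13 ± 2.97. The testis-line blank groups came next, and the 4 testosterone groups lay lowest, after a second step, between 4.62 and 5.09. For Scara5 the only such step separated the XXSry (7.80 ± 1.20) and XY-Sry (6.91 ± 1.40) testosterone groups from the next group, XXSry estradiol at 5.40. For Dct it separated the blank XXSry (6.14) and XY-Sry (5.61) groups from all others.

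Some of the 9 genes followed each other over the 12 group means, given here as a description of 12 points that share arrays and slides. A1bg and Nt5e had a Pearson r of 0.95, Cml4 and E430021N18Rik 0.94, and Cml4 and Nt5e −0.93. Among all other tested genes, those most like A1bg were Sult3a1 (0.98), Ncmap (0.96) and Gmip (0.96). Those most like E430021N18Rik were Ces2a (0.97), Cyp2d9 (0.95) and Zbtb20 (0.95). Those most like Nt5e were Acnat2 (0.97), Nqo1 (0.96) and Fam126a (0.96), and for Cml4 Nox4 (0.94) and Tmem19 (0.93) followed E430021N18Rik. Scara5 was most like Asns (0.96), Brix1 (0.93) and Zfp281 (0.90). The values were lower for the rest, with Slc30a10 (0.90) nearest to Dct, Pnrc2 (0.92) to Hao3, Slc25a45 (0.92) to Dio1 and Fhl1 (0.92) to Ntrk2.

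The sex chromosome complement was compared as XX minus XY over all 60 liver arrays, a contrast that did not choose the genes. Ntrk2 and Dct were higher in XX livers, and the other 7 genes did not pass the test. Called at an adjusted p under 0.05 by limma were 2 of the 9 genes, against 0.186% of all tested probes (21 of 11317), and 3 of the 9 had an unadjusted p under 0.05. Both called genes lie on autosomes, Ntrk2 on chromosome 13 and Dct on chromosome 14.
Ntrk2 was higher in XX livers by 1.10 ± 0.16 (2.15-fold, limma adjusted p = 1.2e-05). Blank XX livers had Ntrk2 at 7.62 ± 0.52 (SD, n = 5) and blank XY- livers at 6.27 ± 0.48. Blank XXSry livers had 6.94 ± 0.64 and blank XY-Sry livers 5.14 ± 0.16, where the probe was detected on 0 of 5 arrays. Neither pair of blank groups overlapped.
The same order held with the hormones, at 5.99 against 5.10 and 5.78 against 5.14 with testosterone, and at 7.27 against 5.63 and 6.02 against 5.72 with estradiol. The library labelled XY-Sry testosterone replicate 5, which carried Xist, had Ntrk2 at 6.42, and without it that group's mean was 4.82. Within slides the XX minus XY difference of Ntrk2 was positive on 7 of 8 slides, from −0.01 to 1.88. Leaving out both doubted arrays gave 1.12 (limma adjusted p = 3.35e-06).
Dct was higher in XX livers by 0.93 ± 0.17 (1.90-fold, limma adjusted p = 0.000935), and by 0.87 (adjusted p = 0.00364) without the doubted arrays. The XX mean exceeded the XY mean in all 6 pairs of groups. The pairs were 8.94 and 8.30, and 6.14 and 5.61, with blank capsules, 8.10 and 7.03, and 8.11 and 6.96, with testosterone, and 9.06 and 7.72, and 8.95 and 8.09, with estradiol. The within-slide difference was positive on 8 of 8 slides, from 0.02 to 1.83. A1bg had the next largest difference, 0.69 ± 0.28, and did not pass (limma adjusted p = 0.999). The difference of the XX minus XY contrast between gonad types was called by limma for 0 of the 9 genes, with 2 at an unadjusted p under 0.05.

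Other genes of the pathways around the 9 were tested in liver as lists. These lists, and the cell marker lists below, were chosen with earlier results of these data known. Their counts are therefore a description beside the shares of all probes. Of 14 male-biased liver genes, 2 were higher in the testis line with blank capsules, against 1.75% of all probes called in that contrast. They were the steroid hydroxylases Cyp2d9 (2.89 ± 0.43, limma adjusted p = 5.72e-06) and Cyp7b1 (0.91). None of the 14 was called for gonad type with testosterone (background 0.212%), or 1 without the doubted arrays, and 4 were higher with estradiol (background 2.44%), led by Hsd3b5 (2.39) and Cyp2d9 (1.77). Testosterone raised all 14 over both gonad types (background 19.1%), among them Hsd3b5 by 6.27. Estradiol raised 3 of them (background 6.82%), among them Serpina12 (1.76). The median of the 14 was 0.22 for the blank gonad contrast, 1.78 for testosterone and 0.19 for estradiol.
Of 14 female-biased genes, 4 were lower in the blank testis line, led by Cyp3a41a (−3.01) and the sulfotransferase Sult3a1 (−2.85). Testosterone lowered 13, including Cyp2b13 (−6.77) and Cyp2b9 (−6.13). With estradiol 2 were higher, Cyp17a1 (2.36) and Sult3a1 (0.77), and 4 were lower, including Cyp2b13 (−1.84). Without the doubted arrays 5 were lower in the blank testis line and 4 were higher with estradiol. The median of the 14 was −0.23 for the blank gonad contrast, −1.88 for testosterone and −0.10 for estradiol. The median over all tested genes was 0.01 for the blank gonad contrast, 0.00 for testosterone and −0.02 for estradiol.

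Of 19 genes of growth hormone and steroid signalling, 0 were called for gonad type with any capsule. Testosterone, for which 19.1% of all probes were called, raised 2, the repressor Bcl6 (1.12) and Foxa3 (0.43), and lowered 8, among them the female-biased factor Cux2 (−3.39) and the prolactin receptor Prlr (−2.15).
For the lists that follow, the shares of all probes called were 1.75% for gonad type with blank capsules, 2.44% with estradiol and 19.1% for testosterone.
Around Dio1, 13 thyroid hormone genes were tested, and 1 was called for the blank gonad contrast, the malic enzyme gene Me1 (−0.87, limma adjusted p = 0.0485). Around Nt5e, 0 of 7 adenosine genes were called with blank capsules, and the receptor Adora1 was lower in the testis line with estradiol (−0.93). Around Ntrk2, 0 of 4 neurotrophin genes were called for gonad type, and testosterone raised the sorting receptor Sort1 (0.78) and Bdnf (0.42). Around Hao3, testosterone raised Hao1 (1.10) and Grhpr (0.48) and lowered Agxt (−0.39) among 7 genes of hydroxy acid oxidation in peroxisomes. Around Cml4, 2 relatives of the Nat8 family were tested, and testosterone raised Nat8f2 (0.43). Around Scara5, testosterone lowered the hepcidin gene Hamp2 (−2.10) and Scara3 (−0.61) among 9 scavenger receptor and iron genes.

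Markers of immune cells also differed with gonad type. Of 5 Kupffer cell genes, 4 were lower in the blank testis line (background 1.75%): Adgre1 (−1.14), Vsig4 (−0.88), Csf1r (−0.78) and Clec4f (−0.76). The median of the 5 was −0.78, and their summed level was 11.44 to 12.65 in blank ovary-line livers and 10.64 to 11.16 in blank testis-line livers. With testosterone 0 of the 5 were called for gonad type (background 0.212%), and the summed levels were 10.32 to 11.62 and 10.16 to 11.25. With estradiol 4 were lower in the testis line (background 2.44%), with summed levels of 11.22 to 12.81 in the ovary line and 11.30 to 11.97 in the testis line. They also moved with the hormones over both gonad types: 3 of the 5 were lower with testosterone (median −0.36, background 19.1%) and 4 were higher with estradiol (median 0.49, background 6.82%). The Kupffer gene Cd5l was detected on 0 of 60 arrays.
Of 3 lymphocyte genes tested, Cd3g (−1.01) and Cd3d (−0.53) were lower in the blank testis line (background 1.75%). All 3 were lower there with estradiol (background 2.44%), Cd3g by −0.83, Cd79b by −0.69 and Cd3d by −0.68, and 2 were lower with testosterone over both gonad types (background 19.1%). With blank capsules their summed level was 6.68 to 7.59 in the ovary line and 6.17 to 6.96 in the testis line, and Cd4, Cd8a and Ms4a1 were detected on 0 of 60 arrays. None of the 8 hepatocyte markers was called for gonad type. The part of immune cells in the gonad and hormone differences of the 9 genes was not tested.

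In inguinal fat, 4 of the 9 genes had a tested probe: Scara5, Nt5e and Ntrk2, each detected on 55 of 55 arrays, and Dct, detected on 21 of 55. Fat arrays were normalised apart from liver arrays, so levels are not compared between the tissues. A1bg was detected on 2 of 55 fat arrays, Cml4, E430021N18Rik and Dio1 on 1 each, and Hao3 on 0. A single fat array, XY-Sry testosterone replicate 1, carried A1bg (6.75), Cml4 (7.11), E430021N18Rik (8.12) and Dio1 (7.53). The summed level of 8 hepatocyte markers on that array was 16.21, against 9.05 to 13.82 on the other 54, and leaving it out changed none of the counts below. The treatment fields of the fat array XX estradiol replicate 1 disagree, and it was kept as estradiol. The estrogen-responsive gene Greb1 was at 9.22 on it, against 7.17 to 9.30 on the other estradiol arrays and 4.54 to 5.96 on the testosterone arrays.

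Gonad type over all capsules was called for 0 of the 4 genes by limma in fat (background 7.34%), with 3 at an unadjusted p under 0.05. The estimates were −0.34 ± 0.13 for Nt5e (limma adjusted p = 0.125), 0.34 ± 0.16 for Dct (0.238), 0.20 ± 0.10 for Ntrk2 (0.252) and −0.29 ± 0.16 for Scara5 (0.346). For Nt5e, which stood apart between the gonad types in blank liver, the blank fat arrays overlapped, with medians of 7.77 (6.496 to 8.59) in the ovary line and 7.59 (7.37 to 8.15) in the testis line.
Testosterone raised Scara5, 1 of the 4 genes (background 4.75%), by 0.93 ± 0.20 over both gonad types (1.91-fold, limma adjusted p = 0.00219). Ovary-line fat had a median Scara5 level of 11.32 (10.19 to 11.99) with blank capsules and 11.95 (11.11 to 13.48) with testosterone. Testis-line fat had 10.55 (10.12 to 11.503) and 11.63 (11.17 to 12.22). The arms overlapped in both gonad types. The estimate was 0.90 ± 0.29 in the ovary line and 0.97 ± 0.27 in the testis line, and the difference between them was 0.07 ± 0.39. On the 2 slides that held both capsules it was 0.38 and 1.66. The call was lost with median centring in place of quantile normalisation (0.89, limma adjusted p = 0.0721). Liver Scara5, in contrast, was detected with testosterone in the testis line alone, but the tissues were not tested against each other.

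Estradiol was called for 2 of the 4 genes in fat (background 20.5%). Dct fell by 0.56 ± 0.20 (limma adjusted p = 0.0361) and Ntrk2 rose by 0.35 ± 0.12 (limma adjusted p = 0.0322). A second Ntrk2 probe, dimmer and detected on 47 of 55 arrays, gave −0.02 ± 0.26 (limma adjusted p = 0.967), so the call rests on the brighter probe. By gonad type the second probe gave −0.69 ± 0.38 in the ovary line and 0.64 ± 0.37 in the testis line. Blank ovary-line fat had a median Dct level of 5.74 (5.02 to 6.77) and estradiol-treated ovary-line fat 5.16 (4.50 to 6.11). In the testis line the medians were 5.75 (4.78 to 7.06) and 5.28 (4.799 to 6.49). The arms overlapped, and most arrays of all 4 arms lay below detection. With slide as a block the adjusted p was 0.294 for Dct and 0.0671 for Ntrk2, and within the 2 slides holding both capsules Dct gave −0.49 and 0.25 and Ntrk2 0.26 and 0.60.
For the brighter Ntrk2 probe the estradiol estimate was −0.10 ± 0.17 in the ovary line and 0.79 ± 0.17 in the testis line. Testis-line fat stood at 12.64 ± 0.18 in XXSry and 12.61 ± 0.29 in XY-Sry with estradiol, against 11.95 and 11.72 with blank capsules. Ovary-line fat stood at 12.18 in XX and 11.93 in XY- with estradiol, against 12.47 and 11.83. The difference between the gonad types, 0.89 ± 0.24, missed the threshold (limma adjusted p = 0.0599), so that 0 of the 4 genes were called for it, with 1 at an unadjusted p under 0.05 (background 0.813%). The testosterone difference between gonad types was called by limma for 0 of the 4 genes, with 1 at an unadjusted p under 0.05 (background 0.0137%).
The sex chromosome contrast was called by limma for 0 of the 4 genes in fat, with 2 at an unadjusted p under 0.05 (background 0.137%). These 2 are the genes called in liver, with XX minus XY estimates of 0.51 ± 0.16 for Dct (limma adjusted p = 0.214) and 0.25 ± 0.10 for Ntrk2 (0.348).

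**Figure D4:**
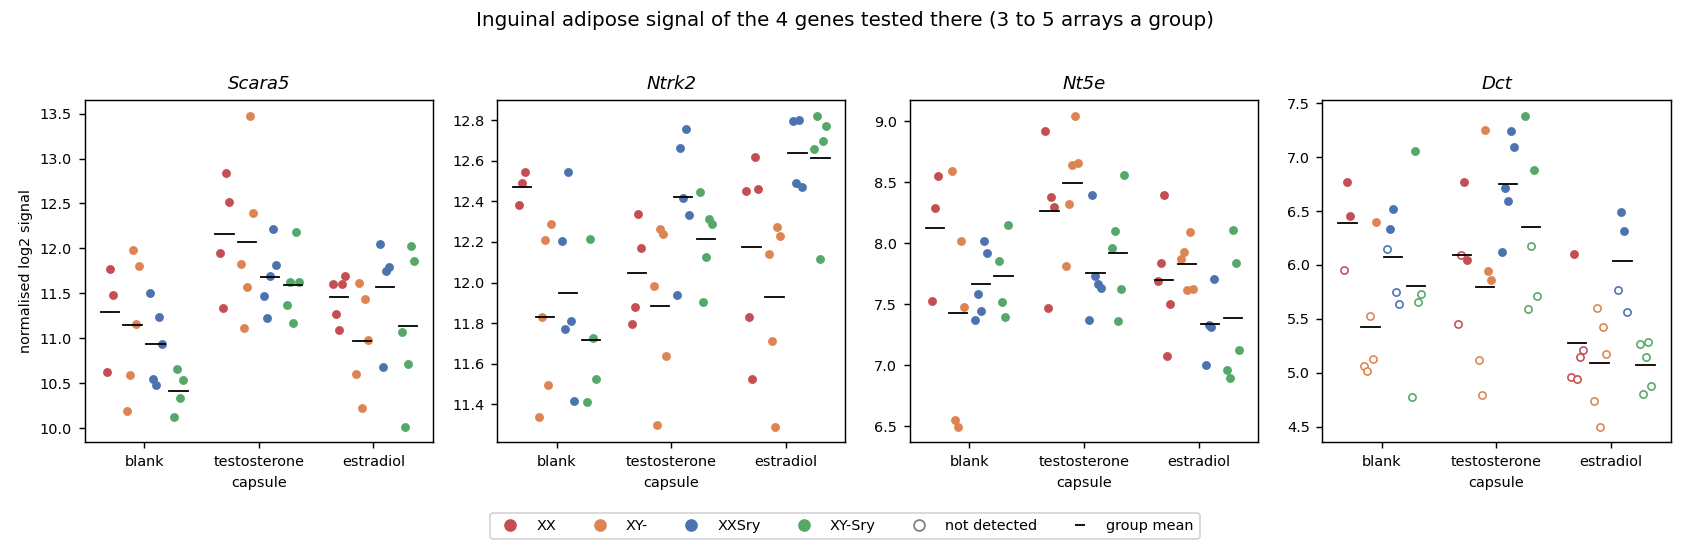
Log2 level of Scara5, Ntrk2, Nt5e and Dct on the inguinal fat arrays, by genotype and capsule, with 1 point per array (open where not detected) and the group mean as a bar. Scara5 lies higher with testosterone than with blank capsules in both gonad types (0.90 and 0.97), and Ntrk2 lies near 12.6 in both testis-line estradiol groups.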

How the data were processed

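Liver and inguinal fat RNA was measured on Illumina expression BeadChips, 60 liver and 55 fat arrays. Per the file headers, the deposited tables hold each probe's signal intensity, its detection p-value and a bead standard error, a signal spread whose 115 columns were not used. The submitters' processing notes name lumi, with no version. The background step and the animals behind each array are not given in the sources used here.

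Each tissue was processed apart with limma 3.58.1 in R 4.3.3: normexp background correction with negative controls inferred from the detection p-values, an offset of 16, quantile normalisation and log2. A probe was tested where its detection p-value was under 0.01 on as many arrays as the smallest group holds (5 in liver, 3 in fat), which left 11317 liver and 14636 fat probes. A model of the 12 group means was fitted to all of them with moderated variances, and p-values were adjusted by the Benjamini-Hochberg method over all tested probes. Adjusted p under 0.05 was called. Estimates are log2 differences with their standard errors; the testosterone, estradiol and sex chromosome contrasts average over gonad types, and all group means count equally. The fit was tested on simulated data. The number of arrays limits the precision.

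Where a gene has several tested probes, the brightest stands for it. Named are the 9 genes, up to 4 called examples from each gene list (the 2 largest each way), and the 3 genes most correlated with each of the 9 over liver group means. The 9 genes and the lists were chosen with earlier results of these data known. Current names from RefSeq matched 17258 of 18120 symbols. Alternatives were no background correction, an offset of 50, median centring, no filter, slide as a block, array weights and leaving out arrays.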

Additional observations from a re-analysis of the deposited data

Results flagged for a closer look

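In 8 of the 152 groups of 4 or 5 arrays looked at for the 9 genes, 1 array stood apart from the rest by Dixon's test; chance alone gives about 1 in 20 groups. In liver, A1bg was at 6.62 in XY- testosterone replicate 1, against 4.36 to 4.92 in the rest of its group. A1bg was at 7.78 in XXSry estradiol replicate 5, against 9.25 to 9.74 in the rest of its group. Scara5 was at 7.37 in XX estradiol replicate 1, where the others lay between 4.55 and 5.34. Nt5e was at 7.68 in XX testosterone replicate 5, where the others lay between 6.88 and 7.09. For Scara5 in XX blank replicate 2 (4.96, others 4.34 to 4.44) and Hao3 in XX testosterone replicate 4 (4.83, others 4.39 to 4.48) the probe was not detected. In fat, Dct was at 6.11 in XX estradiol replicate 2, against 4.94 to 5.21, and Ntrk2 was at 12.12 in XY-Sry estradiol replicate 3, against 12.66 to 12.82.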

How the results depend on the processing

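No paired analysis was possible because the labels carry no replicate numbers; slide, read from the array titles, was used as a block. The liver sex chromosome count was 2 under every alternative run, and both Dct (0.85 to 0.99) and Ntrk2 (1.04 to 1.16) passed whichever array was left out. The number of genes whose gonad arms were separate with blank capsules, 5, was 3 with median centring and 5 to 6 with 1 array left out. In fat, the estradiol count of 2 was 1 with the array of disputed treatment left out or taken as testosterone, with median centring, without background correction, without a filter and with an offset of 50. It was 0 with slide as a block and 0 to 2 with 1 array left out (0 without XXSry estradiol replicate 1). Leaving out 1 array ended the Dct call for 11 of the 55 arrays (adjusted p up to 0.0903) and the Ntrk2 call for 8 (up to 0.0579). The arrays for Dct were XX blank 2 and 3, XX estradiol 1 and 3, XXSry blank 3, XXSry estradiol 1 and 4, XY- blank 5, XY- estradiol 1 and 3, and XY-Sry blank 2. Those for Ntrk2 were XX blank 1, XX estradiol 4, XXSry estradiol 1 and 3, XY- blank 1, XY- estradiol 4, and XY-Sry blank 1 and 4. The count of estradiol differences between gonad types, 0, was 1 with array weights, without background correction and with an offset of 50, and 0 to 1 with 1 array left out, which was Ntrk2 each time (adjusted p 0.00979 with weights, and from 0.0239 with 1 of 9 arrays left out). Array weights also gave 1 gene for gonad type (Nt5e, −0.39) and 2 for sex chromosomes (Dct 0.49, Ntrk2 0.28), and median centring gave 0 for testosterone. The cause of these shifts was not tested.

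Without background correction the liver differences shrank, to −4.16 for A1bg, −1.57 for Dct and 1.38 for Cml4 with blank capsules. Median centring moved the median of all liver probes for estradiol from −0.02 to −0.18, and the share higher among called probes from 52.1% to 8.55%; for testosterone that share went from 42.8% to 16.5%. Levels near background, as for Hao3 and Scara5, are bounded by the chips' dimmest detected probes.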
